A study of Xenopus tropicalis with 12 samples.

Results

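The 8 genes of the urea cycle were followed in the liver of the frog *Xenopus tropicalis* at metamorphosis. They were chosen by name from the 26529 genes of a table of read counts: nags, cps1, otc, ass1, asl, arg1, arg2 and the ornithine carrier slc25a15, which the table lists as slc25a15.2 and which was matched through a RefSeq synonym. The T3 group held livers of wild-type tadpoles treated at stage 54 with 10 nM T3 (triiodothyronine, the active thyroid hormone) for 18 h. The groups st54, st61 and st66 held livers of untreated wild-type tadpoles at stage 54, before metamorphic climax, at stage 61, during it, and at stage 66, its end. Each group had 3 libraries of RNA from different tadpoles, and all tadpoles had the same parents. The labels do not say whether the T3 tadpoles shared a tank or whether livers were pooled, so p-values measure the spread between these libraries.

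The urea cycle turns ammonia, which is toxic, into urea. In frogs that become land-living, the aquatic tadpoles release most of their nitrogen as ammonia. Their liver takes up urea synthesis at metamorphosis, a shift that depends on thyroid hormone. Nitrogen excretion was not measured here, and whether this shift takes place in *Xenopus tropicalis* was not examined. In the mitochondrion, NAGS makes the activator that CPS1 needs, CPS1 joins ammonia and bicarbonate to carbamoyl phosphate, SLC25A15 brings in ornithine, and OTC joins both to citrulline. In the cytosol ASS1 and ASL turn citrulline and aspartate into arginine, and arginase 1 (ARG1) splits off urea, while arginase 2 (ARG2) is a mitochondrial arginase outside the main hepatic route in mammals.

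Library totals ran from 7928459 to 39536147 counts, with 16272 to 18922 genes detected. All 10 hepatocyte markers looked for (alb, tf, fga and others) were detected in every library, with summed levels of 48958 to 52933 CPM (counts per 1000000 of the column total) in T3 and 54737 to 57332 in st54, 69452 to 75639 in st61 and 58364 to 67579 in st66. Markers of kidney tubule, another site of ass1 and arg2 expression, summed to 0.505 to 3.88 CPM. The T3 libraries lay close together, with a biological coefficient of variation of 2.57% against 33.7% in st54, 23.9% in st61 and 40.2% in st66, although their differences exceeded sampling noise (chi-square per gene of 1.96 to 5.4, against 15.1 to 179 elsewhere). Replicate 3 of st54 stood apart: its rank correlation over genes was 0.956 to 0.957 with T3 libraries and 0.944 to 0.946 with its own group. Replicate 1 of st66 also stood apart, at 0.934 to 0.941 with st61 and 0.91 to 0.93 with its own group. These libraries were picked out in these same data, so calls made without them are no independent support. Where leaving out one of them changed the call of a urea cycle gene, this is stated.

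cps1 and otc, the mitochondrial enzymes that carry ammonia into citrulline, were higher at climax than at stage 54, while arg2 was lower at both later stages. The otc call ended in 6 of 24 alternative settings. With all 12 libraries in the main fit, T3 for 18 h raised none of the 8 genes past the threshold, and slc25a15.2 and arg1 were lower under it. Without st54 replicate 3, ass1, asl and arg2 were called higher in T3 and cps1 lower. That library was the st54 library closest to T3, so leaving it out favours differences between the 2 groups. Calls over all genes then went from 1430 higher and 1140 lower to 2249 and 2142. The arg1 call ended in 11 of 23 alternatives. Neither slc25a15.2 nor arg1 was called in T3 over st54 with column totals or with the T3 libraries summed to 1. The test was edgeR's quasi-likelihood test on counts scaled by TMM factors, which adjust for a few abundant genes taking up reads, and a call means a p under 0.05 after Benjamini-Hochberg adjustment over all 15102 genes that passed the count filter. All 8 genes passed it, arg2 only through its counts in T3 and st54. With st61 and st66 fitted alone, arg2 did not pass. Between st61 and st54, 4 of 8 were called (3 higher, 1 lower), against 18.9% of all genes tested (10.0% higher and 8.85% lower). Between st66 and st54, 2 of 8 were called (1 higher, 1 lower), against 13.7% of genes (8.23% higher and 5.48% lower, or 1243 higher and 827 lower genes, against 720 and 861 with column totals). Between T3 and st54, 2 of 8 were called, both lower, against 17.0% of genes either way (9.47% higher and 7.55% lower). The split by direction over all genes depended on the scaling: T3 over st54 gave 1430 higher and 1140 lower with TMM factors and 1739 higher and 375 lower with column totals. The comparisons with st54 share its 3 libraries. Levels below are CPM on column totals, and folds come from the edgeR fit, so they need not equal the ratio of the means. Because livers were sequenced in bulk, fewer cells of a type and less RNA per cell cannot be told apart.

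**Figure D1:**
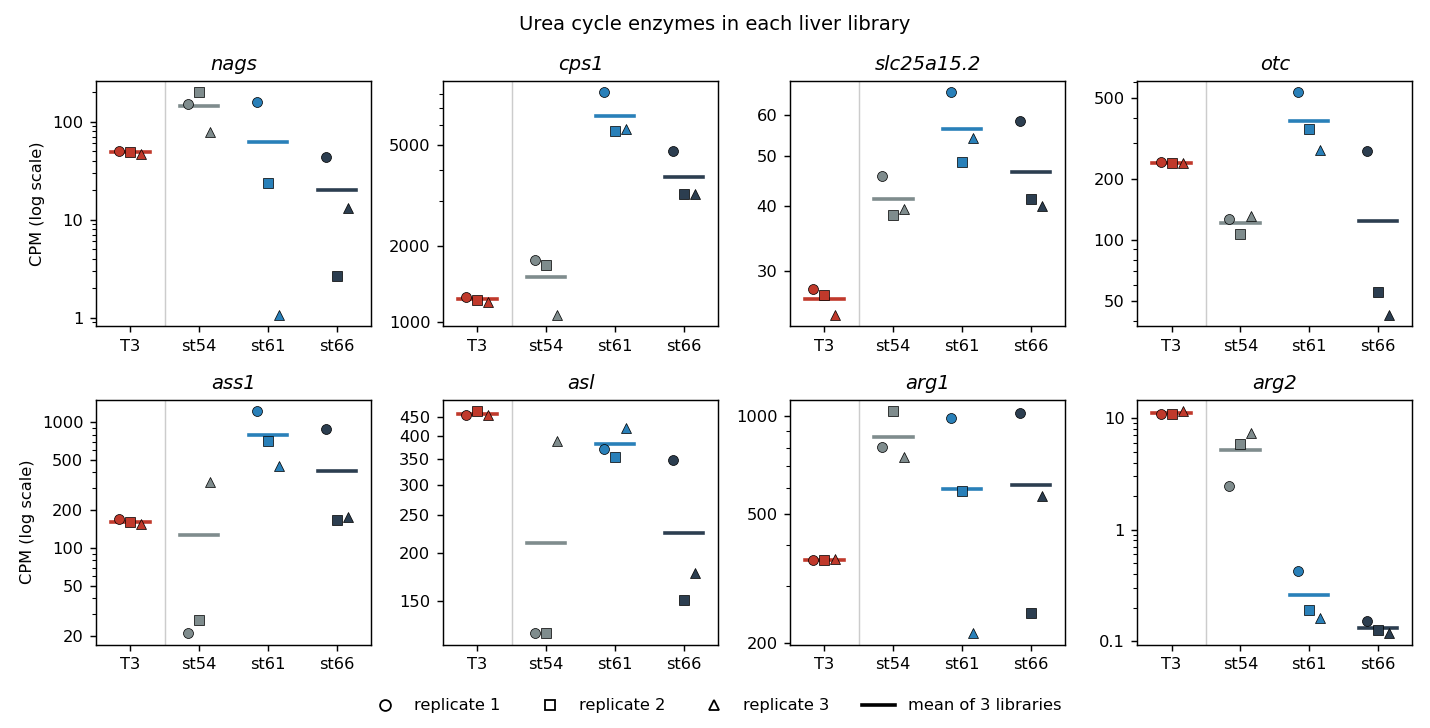
Level of each urea cycle gene in the 12 liver libraries, in CPM on a log axis, by group, with replicates 1 to 3 as circle, square and triangle and the group mean as a line. cps1 is highest in the 3 st61 libraries, arg2 is under 0.5 CPM in st61 and st66, and nags ranges from 1.07 to 160 CPM within st61.

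The activator enzyme nags (chr10:18019106-18027387, minus strand) was the most variable member. It had 50.6, 48.8 and 47.2 CPM in T3, against 152, 199 and 79.1 CPM in st54, 160, 23.7 and 1.07 CPM in st61 and 43.8, 2.65 and 13.3 CPM in st66. Every T3 and every st66 library was below every st54 library, while st61 held both a library at the st54 level and one with 20 counts. The st61 libraries differed 149.2-fold, the widest spread within a group for any of the 8. No contrast of nags was called: the log2 difference was -1.86 ± 1.14 (SE) for T3 over st54 (adjusted p = 0.271), -1.14 for st61 over st54 (adjusted p = 0.549, and -3.54 with adjusted p = 0.0649 without st61 replicate 1) and -2.85 ± 1.20 for st66 over st54 (adjusted p = 0.144). The T3 difference was called only with T3 and st54 fitted alone (adjusted p = 0.00969, range 0.00969 to 0.734 over 23 alternatives), and the st66 difference only without st61 replicate 3 (adjusted p = 0.0445, range 0.0445 to 0.655). Without st66 replicate 1 the st66 level was 14.1-fold below st54 (adjusted p = 0.0863).

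cps1 (chr9:56844485-56902762, plus strand), the step that commits ammonia to the cycle, had 1262, 1226 and 1205 CPM in T3. The stages gave 1763, 1677 and 1069 CPM in st54, 8114, 5681 and 5827 CPM in st61, and 4772, 3216 and 3226 CPM in st66. Every st61 library lay above every st66 library, and every st66 library above every st54 and T3 library. cps1 rose 4.52-fold in st61 over st54 (log2 2.17 ± 0.25, adjusted p = 0.000166), a call that held under all 24 alternative settings, and 2.76-fold in st66 over st54 (log2 1.47, adjusted p = 0.00278), which was lost with those groups fitted alone (adjusted p = 0.0686). The lower level in st66 than in st61 was not called (log2 -0.71 ± 0.25, adjusted p = 0.0868), but was without st66 replicate 1 (adjusted p = 0.045) or st54 replicate 3 (adjusted p = 0.0477, range 0.00997 to 0.282). T3 was not called against st54 (log2 -0.59 ± 0.24, adjusted p = 0.116), although without st54 replicate 3 it was called 1.71-fold lower (adjusted p = 0.0317, range 0.0317 to 0.637). It was 6.79-fold lower than st61 (adjusted p = 4.5e-05) and 4.15-fold lower than st66 (adjusted p = 0.000324). The hepatocyte markers given above were also at their highest sum in st61. Of the 10, 2 were called higher in st61 than in st54 and 0 lower. This was near the 18.9% of all genes called either way (10.0% higher and 8.85% lower). Fibroblast markers summed to 1557 to 2656 CPM in st61 and 426 to 732 CPM in st54. The part of these 2 marker sets in the cps1 result was not tested.

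The ornithine carrier slc25a15.2 (chr2:150198614-150206695, minus strand) was lowest under T3 and highest at climax. It had 27.7, 27.0 and 24.7 CPM in T3, against 45.8, 38.4 and 39.6 CPM in st54, with 66.4, 48.8 and 54.3 CPM in st61 and 58.5, 41.4 and 40.0 CPM in st66. All T3 libraries were below all others, all st61 libraries were above all st54 libraries, and st66 overlapped both. slc25a15.2 fell 1.93-fold in T3 relative to st54 (log2 -0.94 ± 0.16, adjusted p = 0.00415). That call was lost with column totals in place of TMM factors (adjusted p = 0.0502) and with the T3 libraries summed to 1 (adjusted p = 0.269), and the adjusted p over its 23 alternatives ran from 5.49e-07 to 0.269. The increase in st61 over st54 was 1.42-fold (log2 0.50 ± 0.16, adjusted p = 0.0451) and was called in 7 of 24 alternatives. Leaving out any single T3 or st54 library, st61 replicate 1 or 3, or st66 replicate 2 ended it.

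otc (chr2:58042790-58073280, minus strand), which makes citrulline, peaked at climax. Its level was 242, 239.5 and 240.4 CPM in T3, against 127, 107 and 131 CPM in st54, and 534, 351 and 276 CPM in st61 and 274, 55.2 and 42.8 CPM in st66. All T3 and st61 libraries lay above all st54 libraries, and st66 held 1 library just under the lowest of st61 and 2 below every st54 library. otc rose 3.30-fold in st61 over st54 (log2 1.72 ± 0.47, adjusted p = 0.0247), and fell 3.29-fold in st66 relative to st61 (log2 -1.72 ± 0.47, adjusted p = 0.0405). This was the one call among the 8 between st66 and st61, where 10.0% of genes were called (5.75% higher and 4.28% lower). It was called in 10 of 24 alternatives, and leaving out any T3 library, st66 replicate 2 or 3, st61 replicate 1 or 2, or st54 replicate 1 or 2 ended it. Without st66 replicate 1, otc was 6.35-fold lower in st66 than in st61 (adjusted p = 0.000241, range 0.000241 to 0.19) and 1.93-fold lower than in st54 (adjusted p = 0.0256, range 0.0256 to 1), while with all libraries st66 over st54 was not called (log2 0.00, adjusted p = 0.998). The call of otc in st61 over st54 ended in 6 of 24 alternatives (adjusted p 0.000545 to 0.0941 over all 24). These were column totals, the T3 libraries summed, the T3 libraries left out of the fit, and leaving out st61 replicate 1, st54 replicate 1 or st54 replicate 2. T3 over st54 gave log2 0.68 (adjusted p = 0.314), higher in 3 of 3 libraries and not called. It was called with T3 and st54 fitted alone (adjusted p = 0.00948) or without st66 replicate 1 (adjusted p = 0.0451), over a range of 0.00948 to 0.705. Leaving out st66 replicate 1 also gave calls of otc 3.09-fold higher in T3 than in st66 (adjusted p = 0.000955, range 0.000955 to 0.632) and 2.05-fold lower in T3 than in st61 (adjusted p = 0.005, range 0.00375 to 0.474), neither of which was called with all libraries (adjusted p = 0.289 and 0.103).

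ass1 (chr8:13039270-13098534, minus strand), which joins citrulline to aspartate, depended on st54 replicate 3. It had 170, 163 and 154 CPM in T3, against 21.0, 26.9 and 333 CPM in st54, with 1239, 705 and 452 CPM in st61 and 889, 167 and 178 CPM in st66. Replicates 1 and 2 of st54 were below every other library, whereas replicate 3 was above every T3 library and below every st61 library. With all libraries and TMM factors edgeR called no contrast of ass1. T3 over st54 was at log2 0.04 (adjusted p = 0.981), and st61 over st54 at 6.50-fold (adjusted p = 0.0708). However, DESeq2 (adjusted p = 0.0347) and limma voom (adjusted p = 0.0162) called the difference of st61 over st54 on the same 12 libraries. Without st54 replicate 3, ass1 was called 5.52-fold higher in T3 (adjusted p = 0.0154, range 0.0154 to 0.994), 34.7-fold higher in st61 (adjusted p = 0.000702, range 0.000702 to 0.194) and 17.0-fold higher in st66 (adjusted p = 0.00263, range 0.00263 to 0.569) than in the remaining st54 libraries. Against st61, T3 was at log2 -2.66 (adjusted p = 0.0502). That difference was called in 9 of 23 alternatives, among them without st66 replicate 1 (adjusted p = 0.037) and without st54 replicate 1, 2 or 3 (range over all 23 alternatives 0.000839 to 0.391). Against st66, ass1 was called lower in T3 only without st54 replicate 3 (3.07-fold, adjusted p = 0.0326, range 0.0326 to 0.615).

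asl (chr2:97921937-97941193, plus strand), which releases arginine, showed the same split of st54. It had 454, 466 and 454 CPM in T3, against 124, 124 and 389 CPM in st54, with 371, 355 and 421 CPM in st61 and 348, 150.5 and 177 CPM in st66. Its column-total CPM was higher in every T3 library than in every other library, which among the 8 held for asl and arg2. For asl this depended on the scaling. TMM factors were 1.186 to 1.246 in T3 and 0.9772 in st54 replicate 3, and with them no T3 library was above st54 replicate 3. The T3 over st54 difference was log2 0.81 ± 0.39 (adjusted p = 0.167) with all libraries and 3.03-fold without st54 replicate 3 (adjusted p = 0.000829, range 0.000829 to 0.609), and limma voom called it on all 12 libraries, as it did asl in st61 over st54 (adjusted p = 0.0403). Against st61 the sign depended on the scaling: log2 -0.09 (adjusted p = 0.883) with TMM factors and 0.26 (adjusted p = 0.656) with column totals, not called in either. Without st54 replicate 3, asl was also called 3.21-fold higher in st61 (adjusted p = 0.00044, range 0.00044 to 0.381) and 1.96-fold higher in st66 (adjusted p = 0.00988, range 0.00988 to 0.985) than in st54. Leaving out that library also gave calls of asl higher in T3 than in st66 (1.55-fold, adjusted p = 0.0227, range 0.0227 to 0.772) and lower in st66 than in st61 (1.64-fold, adjusted p = 0.0269, range 0.0269 to 0.717).

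On column totals, endothelial, erythroid and fibroblast marker sums were highest in the same st54 and st66 libraries as ass1 and asl. They did not follow these genes in all respects. All 10 endothelial markers were detected in every library, and they summed to 1924 to 2024 CPM in T3, to 828, 834 and 1425 CPM in st54 replicates 1 to 3, to 1796 to 3063 CPM in st61 and to 1402, 536 and 335 CPM in st66 replicates 1 to 3. The high st54 library and the high st66 library for this sum were those that were high for ass1 and asl. Most of the st54 split lay in stab2, at 304, 293 and 877 CPM in replicates 1 to 3. pecam1, kdr and stab1 were also highest in st54 replicate 3. tek, lyve1 and plvap were lowest there, and cdh5, tie1 and egfl7 lay between the other replicates. Erythroid markers (8 of 10 in the table, all 8 detected) were highest in the same libraries, at 1542, 1945 and 3256 CPM in st54 and 3089, 1971 and 1869 CPM in st66, as were fibroblast markers (10 of 10 detected), at 635, 426 and 732 CPM in st54 and 1764, 985 and 1550 CPM in st66. In T3, erythroid markers summed to 2027 to 2100 CPM and fibroblast markers to 369 to 405 CPM. The fibroblast sum was thus lower in every T3 library than in every st54 library, whereas asl was higher on column totals. In st66, the fibroblast sum of replicate 3 lay closer to replicate 1 than to the remaining library. For ass1 and asl, st66 replicate 3 lay closer to that remaining library. With TMM factors, 1.136 and 0.7853 in st66 replicates 1 and 3, the fibroblast sum in st66 was highest in replicate 3 instead. Of the fibroblast markers, col3a1, dcn and acta2 were lowest in st54 replicate 3, and the rest were highest there. The erythroid marker tal1 was also lowest in that library, hemgn lay between the other replicates, and the rest were highest. The part of these cell types in the ass1 and asl values was not tested.

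**Figure D2:**
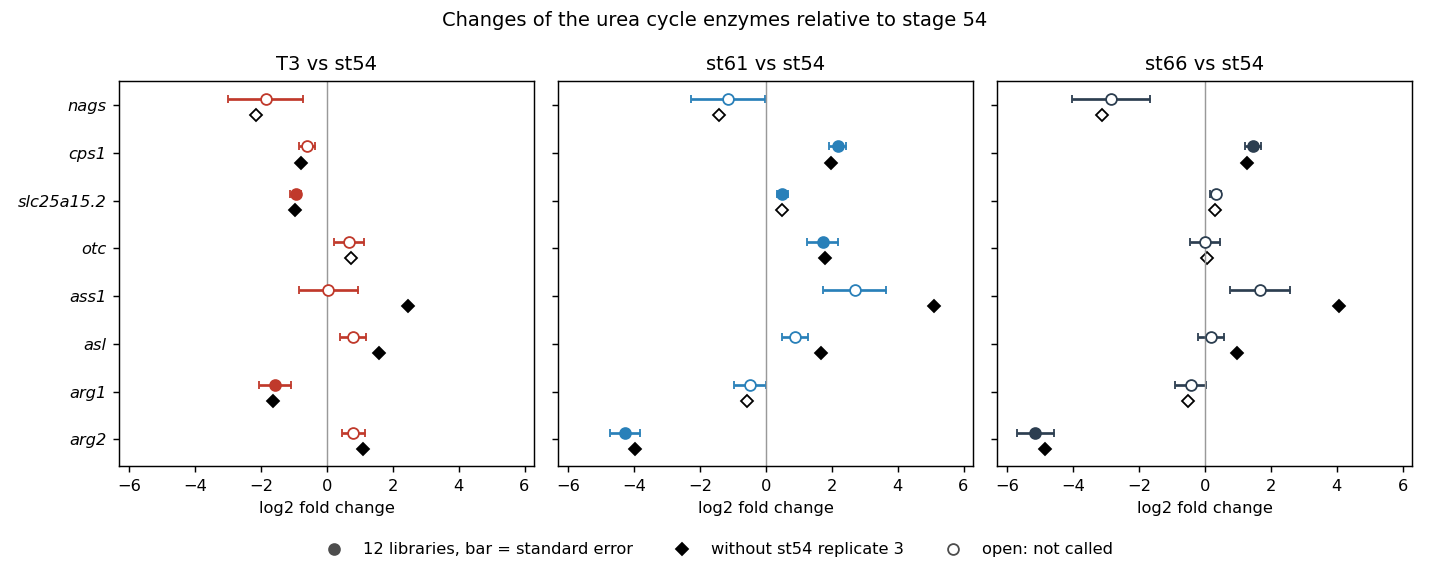
Log2 fold change of each gene in T3, st61 and st66 over st54, with the standard error as a bar (circles, 12 libraries) and without st54 replicate 3 (diamonds); filled symbols were called at an adjusted p under 0.05. ass1 moves most when that library is left out: log2 2.46 in T3, 5.12 in st61 and 4.08 in st66.

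arg1 (chr5:69810183-69822876, plus strand), the arginase of hepatic urea synthesis, had 359.7, 361 and 363 CPM in T3, against 805, 1040 and 749 CPM in st54. In the later stages it had 990, 589 and 214 CPM in st61 and 1020, 248 and 569 CPM in st66. All T3 libraries lay below all st54 libraries. On column totals, st61 and st66 each spanned a range reaching from below the T3 level to about the st54 level. The lower end of st66 depends on the scaling, since the TMM factor was 0.7468 in st66 replicate 2 and 1.186 to 1.246 in T3. arg1 fell 2.95-fold in T3 relative to st54 (log2 -1.56 ± 0.48, adjusted p = 0.0472). This call ended in 11 of 23 alternatives, among them leaving out T3 replicate 1, 2 or 3, st54 replicate 1 or 2, st61 replicate 2 or st66 replicate 3, using column totals, no low-count filter or a replicate block, and summing the T3 libraries (adjusted p 0.00227 to 0.508 over all 23). arg1 was not called in st61 over st54 (log2 -0.48, adjusted p = 0.549) or in st66 over st54 (log2 -0.43, adjusted p = 0.606).

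arg2 (chr2:74872017-74884934, plus strand), the mitochondrial arginase, was close to the limit of detection in the later stages. The RefSeq table gives arg1 and arg3 among its synonyms, and it is called here by its symbol in the count table. It had 10.95, 10.9 and 11.7 CPM in T3, against 2.49, 5.92 and 7.29 CPM in st54. In st61 it had 0.422, 0.190 and 0.161 CPM (8, 4 and 3 counts), and in st66 0.151, 0.126 and 0.118 CPM (3, 1 and 1 counts), where 3 counts were worth 0.0759 to 0.378 CPM depending on the library. Each T3 library was above each st54 library, and each of these above every st61 and st66 library. Because arg2 passed the count filter only through T3 and st54, groups where it was high, its calls at the later stages depend on that choice. arg2 fell in st61 relative to st54 (edgeR log2 -4.27 ± 0.46, adjusted p = 0.000111) and in st66 relative to st54 (adjusted p = 0.000175), and both calls held in all 24 alternatives. On counts summed by group, its CPM was 19.4-fold lower in st61 than in st54 (95% exact interval 11.6 to 35) and 35.9-fold lower in st66 than in st54 (15.2 to 111); these intervals cover counting error only. Exocrine pancreas markers, of which 8 to 10 of 10 were detected per library, summed to 1647 to 1657 CPM in T3, against 2552, 341 and 1019 CPM in st54, 786, 2175 and 244 CPM in st61 and 124, 480 and 147 CPM in st66. Of these 10 markers, 3 were called lower and 2 higher in st61 over st54, 6 lower and 2 higher in st66 over st54, and 2 lower and 8 higher in T3 over st66. Among all genes, 8.85% were lower and 10.0% higher in st61 over st54, and 5.48% and 8.23% in st66 over st54. In T3 over st66 these shares were 17.1% and 11.6%. The part of the pancreas markers in the arg2 result was not tested. T3 over st54 was not called (log2 0.80 ± 0.35, adjusted p = 0.134), and was called 2.15-fold higher without st54 replicate 3 (adjusted p = 0.0428, range 0.0178 to 0.6) and by limma voom on all libraries. T3 was 43.6-fold above st61 (26.3 to 78.1) and 80.7-fold above st66 (34.5 to 249) on summed counts, with adjusted p of 3.7e-05 and 6.3e-05 from edgeR.

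Between T3 and the later stages, the share of the 8 that was called was near that of all genes. The share counts arg2, which passed the count filter only through T3 and st54, where it was high. Against st61, cps1 and slc25a15.2 were lower (slc25a15.2 2.73-fold, adjusted p = 0.000117) and arg2 was higher, 3 of 8 beside 33.2% of all genes (16.6% in each direction, 2509 higher and 2507 lower with TMM factors, and 3692 higher and 1300 lower with column totals). Against st66 the same 3 genes were called in the same directions (slc25a15.2 2.42-fold lower, adjusted p = 0.000362), beside 28.7% of all genes (11.6% higher and 17.1% lower, and 3130 higher and 1099 lower genes with column totals against 1754 and 2582 with TMM factors). The cps1 and slc25a15.2 calls against st66 were lost with the T3 libraries summed (adjusted p = 0.0686 and 0.0742). The median log2 difference of the 8 was -0.27 in T3 over st54 (-0.05 over all genes tested), 0.70 in st61 over st54 (-0.03), 0.09 in st66 over st54 (0.05) and -1.06 in T3 over st61 (0.00).

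Summed over the 8 genes and divided by transcript length, the cycle stood at 1103, 1101 and 1084 CPM per kb in T3, against 1005, 1108 and 1226 in st54, with 3466, 2325 and 2022 in st61 and 2419, 999 and 1185 in st66. Every st61 sum lay above every T3 and st54 sum. How T3 and st66 stood to st54 depended on the scaling. The T3 sums lay within the st54 range on column totals and below it with TMM factors, at 885.6 to 913.7 in T3, against 1008 to 1254 in st54. The st66 sums of replicates 2 and 3 lay below and within the st54 range on column totals. With TMM factors the st66 sums were 2129, 1338 and 1509, each above every st54 sum. T3 and st54 also differed in makeup. asl held 35.1% to 36.1% of the per-length sum in T3 and 9.52% to 27.1% in st54, and arg1 held 16.4% to 16.9% in T3 and 30.8% to 47.3% in st54. asl was thus the most abundant of the 8 per length in every T3 library, and arg1 in every st54 library. cps1 led in every st61 library (43.7% to 53.8%) and every st66 library (36.8% to 60.0%), against 20.8% to 21.3% in T3. These shares do not depend on the library scaling.

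**Figure D3:**
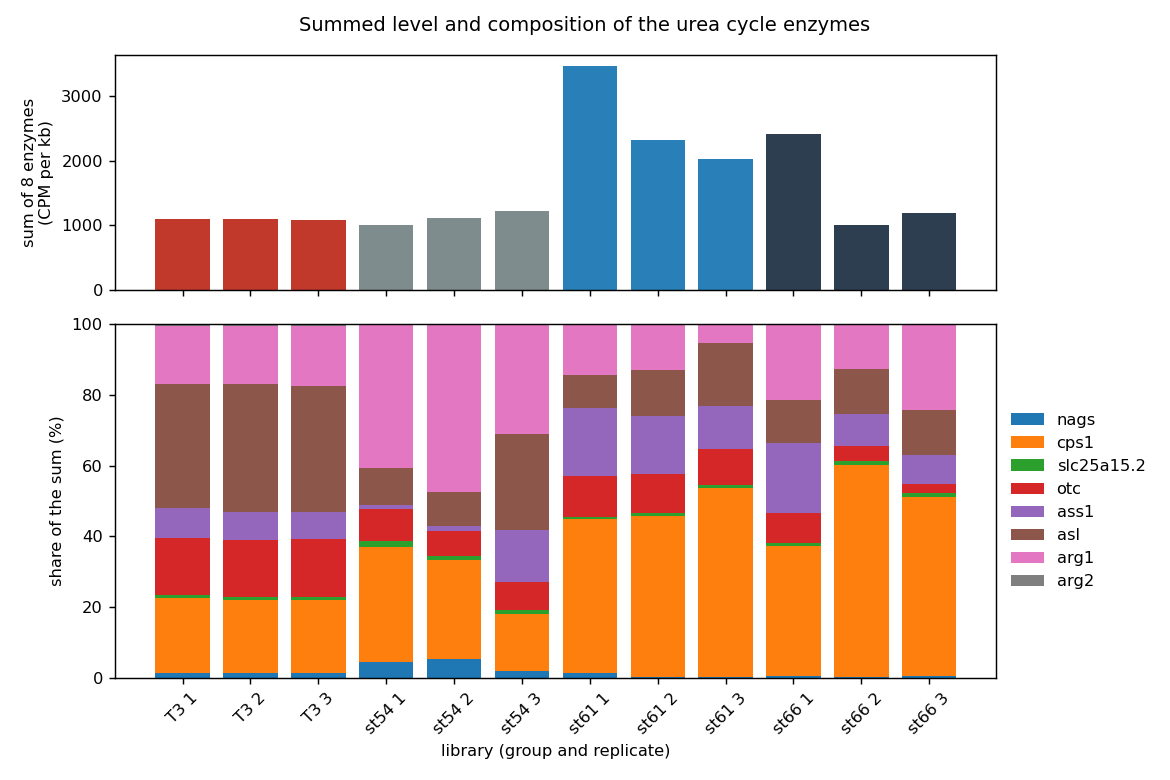
Upper bars give the sum of the 8 genes in CPM per kb of transcript on column totals in each library, from 999 to 3466. Lower stacked bars give each gene's percentage of that sum. The asl share is widest in the T3 libraries, the arg1 share in st54 and the cps1 share in st61 and st66.

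Pairs of neighbouring enzymes kept no fixed ratio. Per length, cps1 exceeded otc 1.27 to 1.32 times in T3, against 3.51, 3.96 and 2.06 times in st54, 3.84, 4.09 and 5.32 times in st61 and 4.39, 14.7 and 19.0 times in st66. ass1 stood at 0.22 to 0.24 of asl in T3, against 0.11, 0.14 and 0.55 in st54, 2.13, 1.27 and 0.68 in st61 and 1.63, 0.71 and 0.64 in st66. The T3 ratio of cps1 to otc was below that of every other library.

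Over the 12 libraries the 8 genes did not vary as a block. On log2 TMM-scaled CPM, Pearson's r was 0.88 between cps1 and slc25a15.2, 0.74 between ass1 and asl and 0.70 between arg1 and nags, but -0.93 between cps1 and arg2 and 0.00 between ass1 and arg1. These values describe libraries that share groups and depth, and no test was made of them. On column totals, replicate 1 was the highest library for most genes in both later stages. Replicate 1 of st66 was highest of its group for 8 of 8 genes, and st61 replicate 1 for 7 of 8, asl being the exception. The lowest library differed by gene. It was replicate 2 for 3 genes and replicate 3 for 5 in st61, and replicate 2 for 5 and replicate 3 for 3 in st66. The st66 order depends on the scaling, since TMM factors were 1.136, 0.7468 and 0.7853 in replicates 1 to 3. For arg2 that order rests on 3, 1 and 1 counts. In st54, replicate 3 was highest for 4 genes and lowest for 3.

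Among 9066 genes with a mean of at least 10 CPM, the closest pattern to each member was found by the same r over 12 libraries. For nags it was klf15, a Krüppel-like transcription factor (r = 0.97), and the next gene, fcn3, was at 0.90. klf15 had 47.0, 48.1 and 46.3 CPM in T3, against 72.7, 95.5 and 99.6 CPM in st54, with 84.8, 31.6 and 7.19 CPM in st61 and 66.9, 10.6 and 21.7 CPM in st66, so it was lowest in the st61 library where nags had 20 counts. For ass1 the closest was slc25a13 (r = 0.97), the mitochondrial carrier that exports aspartate. slc25a13 had 143, 141 and 135 CPM in T3, against 88.1, 84.1 and 115 CPM in st54, 160, 157 and 138 CPM in st61 and 189, 91.8 and 93.7 CPM in st66. The closest genes to the others were gpa33 for cps1 (0.99), reln for otc (0.97), lama5 for asl (0.97), pdp2 for arg1 (0.89), ak3 and then ucp1 for arg2 (0.98 and 0.97) and dis3l for slc25a15.2 (0.96). The values of r describe a choice of the best of many candidates and carry no test.

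**Figure D4:**
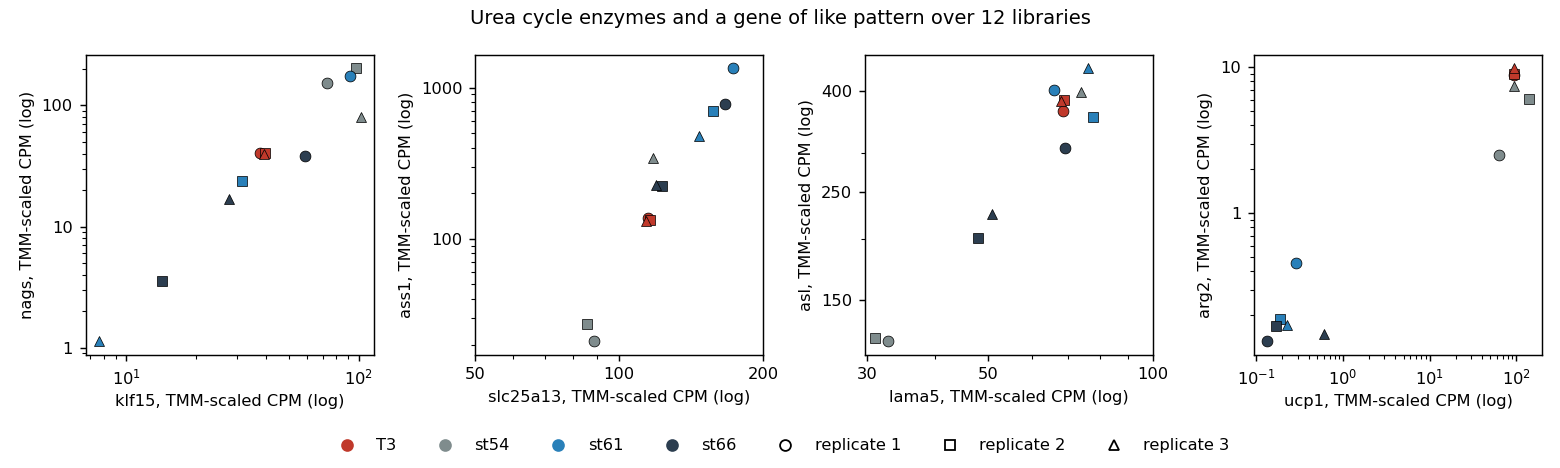
TMM-scaled CPM of nags, ass1, asl and arg2 against klf15, slc25a13, lama5 and ucp1, on log axes, with 1 point per library, colours for groups and shapes for replicates. nags and klf15 fall together through the spread within st61 and st66, whereas arg2 and ucp1 form a high cluster (T3 and st54) and a low cluster (st61 and st66).

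Among genes that supply nitrogen to the cycle or move urea and its precursors, more were called lower than higher relative to st54. Of 23 listed, 20 were in the table and 19 were tested. In T3 relative to st54, 0 rose and 5 fell (median log2 -0.61, against -0.05 over all genes), in st61 relative to st54 2 rose and 5 fell (median -0.45), and in st66 relative to st54 1 rose and 7 fell (median -0.35). Over all genes, 9.47% rose and 7.55% fell in T3, 10.0% rose and 8.85% fell in st61, and 8.23% rose and 5.48% fell in st66. With the T3 libraries summed, 0 of the 19 were called in T3, where 62 of all genes were called higher and 0 lower. Without st54 replicate 3 the list counts were 0 higher and 5 lower in T3, 2 and 6 in st61 and 3 and 8 in st66. Over all genes this setting gave 2249 higher and 2142 lower in T3, 1989 and 1757 in st61, and 1700 and 1323 in st66. Without st66 replicate 1 the list counts were 0 and 8, 2 and 7, and 3 and 9. Those over all genes were 2550 and 2534, 2193 and 2238, and 2333 and 1899. The main fit gave 1430 and 1140, 1516 and 1337, and 1243 and 827, so calls over all genes also grew. Under T3 the falls with the smallest adjusted p were in got1, a cytosolic aspartate aminotransferase (2.03-fold, adjusted p = 0.00486), glud1, the glutamate dehydrogenase that frees ammonia (2.23-fold, 0.00796), gls2, a liver glutaminase (4.01-fold, 0.0101), and slc7a7, a basic amino acid transporter subunit (2.27-fold, 0.0156). glud1 had 467 to 489 CPM in T3, against 758 to 1001.5 CPM in st54, 257 to 369 CPM in st61 and 153 to 265 CPM in st66, and was lower than in st54 at both later stages (2.73-fold in st61, adjusted p = 0.00116, and 3.48-fold in st66, adjusted p = 0.000483). The alanine aminotransferase gpt2 fell 7.41-fold in st61 relative to st54 (adjusted p = 0.00203), the mitochondrial aspartate aminotransferase got2 1.75-fold (adjusted p = 0.0075) and the glutamate carrier slc25a22 1.81-fold (adjusted p = 0.0183). In st66 relative to st54, slc25a22 fell 2.77-fold (adjusted p = 0.00145), gpt 3.11-fold (adjusted p = 0.00591) and the glutamine transporter slc38a3 10.2-fold (adjusted p = 0.00899), or 6.62-fold without st54 replicate 3 and 18.7-fold without st66 replicate 1.

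Genes listed around arginine and ornithine metabolism outside the cycle, not all of which consume either of them, were mixed. Of 17 listed, 15 were in the table and 14 were tested, with 0 higher and 2 lower in T3, 3 higher and 2 lower in st61, and 3 higher and 5 lower in st66, each relative to st54. Over all genes 17.0% were called in T3, 18.9% in st61 and 13.7% in st66, so the T3 count was near the share of all genes. It was 0 with the T3 libraries summed or with column totals, 1 higher and 4 lower without st54 replicate 3, and 3 higher and 3 lower without st66 replicate 1. With column totals, 0 were higher and 1 lower in st61, and 1 higher and 5 lower in st66. Among all genes, T3 over st54 gave 1430 higher and 1140 lower in the main fit. It gave 1739 and 375 with column totals, 2249 and 2142 without st54 replicate 3, and 2550 and 2534 without st66 replicate 1. Column totals gave 1093 higher and 1214 lower over all genes in st61, and 720 and 861 in st66. gamt, which makes creatine, fell 1.85-fold in T3 (adjusted p = 0.0416), 4.90-fold in st61 (adjusted p = 0.000216) and 4.79-fold in st66 (adjusted p = 0.000386), and azin1, an antizyme inhibitor of polyamine control, fell 1.85-fold in T3 (adjusted p = 0.0379). In st61, aldh18a1, which starts proline and ornithine synthesis from glutamate, rose 2.38-fold (adjusted p = 0.00702), the endothelial nitric oxide synthase nos3 1.57-fold (adjusted p = 0.0324) and the ornithine aminotransferase oat 2.31-fold (adjusted p = 0.0444), or 3.55-fold without st54 replicate 3. In st66 oat stood 4.77-fold below st54 (adjusted p = 0.0041, and 3.09-fold without st54 replicate 3). So did aldh4a1 (4.80-fold, adjusted p = 0.00826, and 9.04-fold without st66 replicate 1) and prodh (13.6-fold, adjusted p = 0.0104), which break down proline; prodh had 0.252 to 1.36 CPM in st66 and 11.5 to 14.9 CPM in st54.

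Of 19 genes listed as possible regulators of urea cycle genes, 17 were in the table and all of these were tested. In T3 relative to st54, 4 were higher and 4 lower, in st61 4 higher and 3 lower, and in st66 3 higher and 5 lower, beside 17.0%, 18.9% and 13.7% of all genes called either way. With the T3 libraries summed, 1 was higher and 0 lower in T3, and with column totals 5 were higher and 1 lower. Without st54 replicate 3 the T3 counts were 4 higher and 5 lower, and without st66 replicate 1 they were 6 higher and 4 lower. Among all genes, T3 over st54 gave 1430 higher and 1140 lower in the main fit, and 1739 and 375 with column totals. It gave 2249 and 2142 without st54 replicate 3, and 2550 and 2534 without st66 replicate 1. The higher calls in T3 and st61 include thrb, klf9 and thibz, whose action on urea cycle genes was not tested. The smallest adjusted p in T3 was that of thrb. This gene, thyroid hormone receptor beta, had 29.1 to 30.4 CPM in T3, against 0.481 to 1.57 CPM in st54, and rose 22.2-fold in T3 (adjusted p = 1.44e-05), 17.8-fold in st61 (adjusted p = 5.76e-06) and 13.8-fold in st66 (adjusted p = 1.43e-05). The transcription factor klf9 rose 4.77-fold in T3 (adjusted p = 0.00301) and 3.91-fold in st61 (adjusted p = 0.00262), and thibz, a hormone-induced leucine zipper factor, 59.5-fold in T3 (adjusted p = 0.00242), 364-fold in st61 (adjusted p = 0.000146) and 18.3-fold in st66 (adjusted p = 0.00733). The thibz folds rest on 0.129, 0.476 and 2.80 CPM in st54 and were 181.9, 1109 and 55.4 without st54 replicate 3, and 26.4 in st66 without st66 replicate 1. The glucagon receptor gcgr fell 1.72-fold in T3 (adjusted p = 0.00814), 4.26-fold in st61 (adjusted p = 9.12e-06) and 2.28-fold in st66 (adjusted p = 0.000559), and thra, thyroid hormone receptor alpha, fell 2.32-fold in st66 (adjusted p = 0.0109). The C/EBP factors cebpa, cebpb and cebpd, known regulators of urea cycle genes in mammals and singled out after their values were seen, were called in 0 of 18 tests over the 6 comparisons (adjusted p 0.189 to 0.974). In st54 replicates 1 to 3, cebpa had 464, 371 and 117 CPM, cebpb 620, 541 and 178 CPM, and cebpd 797, 936 and 420 CPM. With replicate 3 so far below the others, the lack of a call against st54 does not show that these genes were unchanged.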

How the data were processed

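The authors deposited raw read counts per gene for 12 liver libraries, used as deposited; the submitters' processing notes name cutadapt 3.4 and STAR 2.7.8a. The sources used here do not give the strand setting, the annotation or the treatment of duplicates. No exon of another gene in the table overlapped an exon of a urea cycle gene. 6 broken lines were left out; start and end of 26287 genes (99.1%) equalled UCB_Xtro_10.0, the build of the coordinates printed, which are the deposited table's. No sequence was used.

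CPM was a count divided by its column sum. Counts were tested with edgeR 4.0.16 (TMM, filterByExpr, quasi-likelihood with robust settings; limma 3.58.1, R 4.3.3) in 1 model over 12 libraries with 8 residual degrees of freedom, 15102 genes tested; SE was the log2 fold change over the square root of F. log2 CPM for correlations used a prior count of 2. The members, lists and naming rule (the 8 enzymes, up to 4 called genes per list by adjusted p in each comparison with st54, the closest gene to each enzyme) were chosen with earlier results of these data known. Alternatives were DESeq2 1.42.0, limma voom, other scalings, no filter, the 2 groups alone, T3 summed, a replicate block, each library left out and, chosen after seeing the data, st66 replicate 1 alone, T3 left out and the lists without st54 replicate 3, without st66 replicate 1, with T3 summed and with column totals. The model was also tested on simulated counts with known changes. Equal replicate numbers did not pair libraries (correlation of deviations -0.110 to 0.158).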

Additional observations from a re-analysis of the deposited data

How the results depend on the processing

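Of 1103 values of single enzymes under alternatives, 978 kept their direction and their side of the threshold, 41 were called only under the alternative, 53 lost a call and 31 turned sign, 1 of these called (otc in st66 over st54 without st66 replicate 1). cps1 in st61 over st54 was called in all alternatives run. So was arg2 against either later stage, but arg2 passed the count filter only through T3 and st54, where it was high. Its adjusted p in st66 over st54 reached 0.0497. The number called over all genes varied with the setting. In T3 over st54 it was 1.89 times the main count with voom, 1.85 with the 2 groups alone and 0.823 with column totals. With 1 library left out it ran from 0.289 to 1.98. T3 over st61 stood at 1.76 with voom and 1.8 with the 2 groups alone. Column totals gave 0.809 in st61 over st54. Fitting 2 groups alone gave 0.274 in st66 over st54 and 0.232 in st66 over st61. The number of enzymes called varied as well, and the cause was not tested. For T3 over st54 (2 called) it was 0 with column totals, 4 with voom, 1 without the low-count filter, 4 with the 2 groups alone, 0 with T3 summed, 1 with the replicate block and 1 to 6 with 1 library left out. For T3 over st61 (3) it was 6 with voom, 5 with the 2 groups alone and 3 to 5 with 1 library left out. For T3 over st66 (3) it was 1 with T3 summed and 3 to 5 with 1 library left out. For st61 over st54 (4) it was 2 with column totals, 2 with T3 summed, 2 with T3 left out and 2 to 5 with 1 library left out. For st66 over st54 (2) it was 1 with the 2 groups alone and 2 to 4 with 1 library left out. For st66 over st61 (1) it was 0 with column totals, 2 with DESeq2, 0 with the 2 groups alone, T3 summed, T3 left out or st66 replicate 1 as the lone st66 library (assumed to vary like the others), and 0 to 3 with 1 library left out. The summed level of the 8 in T3 was 2089.8 CPM with TMM factors, against 2540.1 CPM on column totals, and in st54 3062.4 CPM with TMM factors, against 3018.7 CPM on column totals.

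Signs turned for ass1 in T3 over st54 (log2 -0.06 with upper-quartile factors, -0.46 to 2.46 with 1 library left out), asl in T3 over st61 (0.26 with column totals), nags in T3 over st61 (1.24 with voom, 0.28 with the replicate block, -1.29 to 1.69 with 1 library left out), otc in T3 over st66 (-0.28 with st66 replicate 1 alone), otc in st66 over st54 (-0.04 with RLE factors, -0.05 with upper-quartile factors, -0.04 with DESeq2, -0.36 with voom, -0.01 without the low-count filter, -0.06 with the 2 groups alone, -0.04 with T3 summed, -0.23 with the replicate block, -0.02 with T3 left out, -0.94 to 0.36 with 1 library left out, against 0.00), asl in st66 over st54 (-0.10 to 0.97 with 1 library left out), arg1 in st66 over st54 (0.03 with st66 replicate 1 alone), nags in st66 over st61 (0.11 with voom, -2.68 to 0.69 with 1 library left out) and arg1 in st66 over st61 (-0.01 with T3 summed, -0.35 to 0.68 with 1 library left out). Column totals moved the median of all genes to 0.255 in T3 over st54, against -0.047 with TMM, to 0.350 in T3 over st61 (0.004) and to 0.390 in T3 over st66 (-0.034).

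Over all genes, T3 over st54 called 2570, between 62 with T3 summed and 5084 without st66 replicate 1; T3 over st61 5016 (619 with T3 summed, 9020 with the 2 groups alone); T3 over st66 4336 (335 with T3 summed, 7236 without st66 replicate 1). st61 over st54 called 2853 (1658 with T3 left out, 4431 without st66 replicate 1), st66 over st54 2070 (567 with the 2 groups alone, 4232 without st66 replicate 1) and st66 over st61 1515 (351 with the 2 groups alone, 4562 without st66 replicate 1). Depth limits arg2, at 1 to 8 counts per library in st61 and st66.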
